A study of Mus musculus with 2 samples.

Results

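This account follows the genes for the subunits of the Polycomb repressive complexes, PRC1 and PRC2, on 2 expression arrays of mouse thymocytes. A list of 32 subunit symbols was matched by name to probe sets annotated to a single gene, and 31 symbols were found among the 18193 genes so represented, with 81 probe sets in all. Rybp was the symbol without a match: 2 probe sets carry its name together with that of a pseudogene, and they were not used. The subunits were grouped as the ligases Ring1 and Rnf2 (2 genes), canonical PRC1 (10 genes), variant PRC1 (8 genes besides Rybp) and PRC2 (11 genes).

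Polycomb complexes keep developmental genes silent by modifying histones. PRC1 attaches ubiquitin to histone H2A through RING1A (gene Ring1) or RING1B (gene Rnf2), and PRC2 methylates a lysine of histone H3 through EZH1 or EZH2. Every PRC1 holds one ligase and one PCGF protein: canonical forms add a CBX protein, which binds the methylated histone, and a PHC protein, whereas variant forms carry RYBP or YAF2 in place of the CBX protein. In the thymus these complexes are known for repressing Cdkn2a, which encodes cell-cycle inhibitors, and genes of other lineages.

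The arrays, 1 titled DKO and 1 titled TKO, were hybridised with RNA of lineage-marker-negative thymocytes from C57BL/6J mice, depleted with Dynabeads; the growth field says that mutant thymocytes were kept in culture in standard medium. By the design text both genotypes are Cdkn2a-/-, Ring1A-/- and Ring1Bfl/fl, without LckCre in DKO and with it in TKO. LckCre is a Cre recombinase under the Lck promoter, active in T-lineage cells, which limits the deletion to them. The samples' genotype field differs, naming a Ring1A and Ring1B knockout for DKO and one of Ring1A, Ring1B and Cdkn2a for TKO. The labels give no age, sex or number of animals per array. Each label has 1 array, so there is no spread between replicates and no test; a difference of 2-fold or more was counted in its place. Values are MAS5 signals on a linear scale, and pairs of signals are given with the DKO-labelled array first and the TKO-labelled array second. The median of each array, 68.8 and 71.8, served as a floor, and lower signals were treated as unmeasured. Probe sets differ in how strongly they hybridise, so the signal of a probe set is compared between arrays and not with that of another gene.

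By its brightest probe set, none of the measured Polycomb subunits differed by 2-fold between the arrays as scaled by the authors; Cbx8 came closest. Of the 31 genes, 30 were above the floor on both arrays, 0 were 2-fold higher with the TKO label and 0 were lower by as much, where 3.6% of 11218 genes with a ratio were 2-fold higher and 0.535% were 2-fold lower. The median log2 ratio of the 30, TKO-labelled minus DKO-labelled, was -0.09, and that of all 10316 genes above both floors was -0.03. Ratios ran from -0.35 for Phc3 to 0.98 for Cbx8, and 29 of the 30 lay under 0.5 in size. That size was chosen after the values were seen, and 85.9% of all genes above both floors also lay under it. With such shares in the background, the absence of 2-fold differences is no property of the subunits alone. The brightest and second brightest probe sets of a gene above both floors, read from the same arrays, disagreed in log2 ratio. Their robust SD was 0.21 per probe set over 4794 genes. It leaves out dimmer probe sets and holds no error between animals or RNA preparations.

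**Figure D1:**
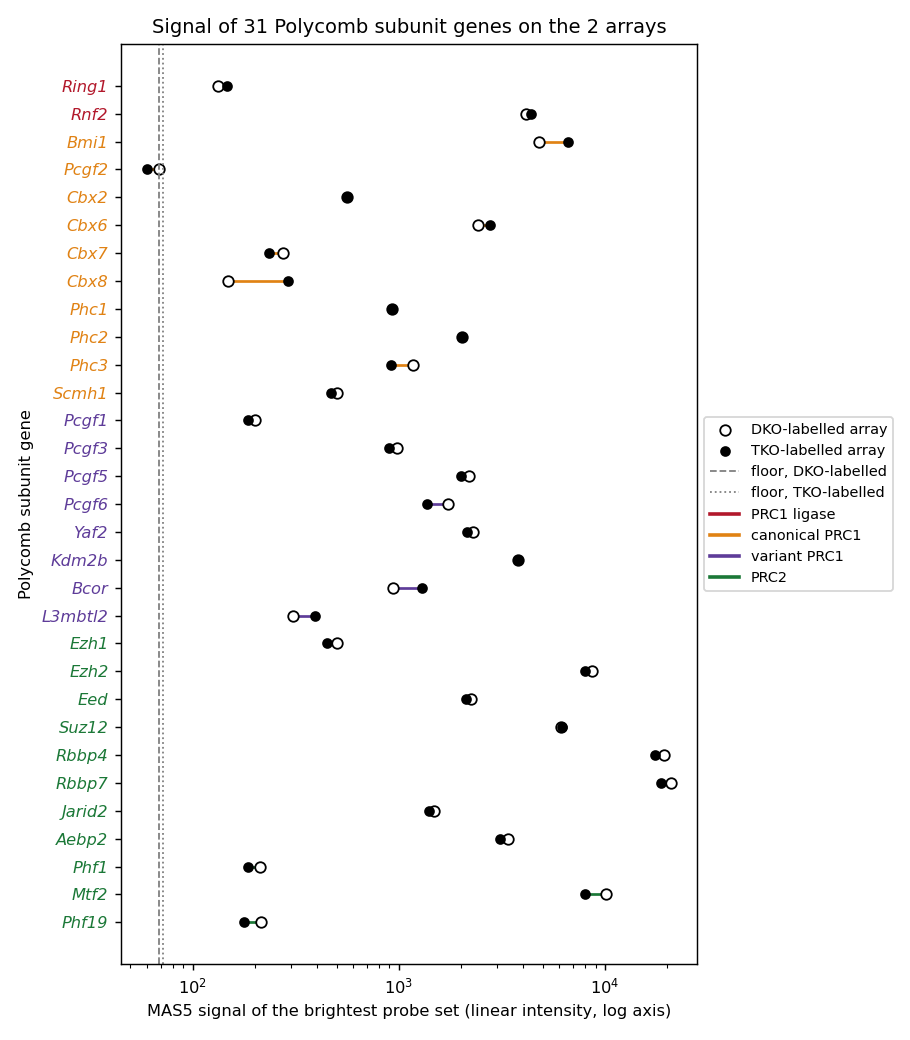
MAS5 signal of the brightest probe set of each of 31 Polycomb subunit genes (log axis) on the DKO-labelled array (open circles) and the TKO-labelled array (filled circles), with the floor of each array as a vertical line; line and name colours give the complex, and each point is 1 array, without error. The circles of most genes overlap or nearly touch, Cbx8 has the widest gap, from 148 to 291, and Pcgf2 lies at the floor.

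Each targeted ligase had a probe set above the floor on both arrays, at similar signals. Rnf2 has 5 probe sets. The brightest gave 4149 and 4384 (log2 ratio 0.08), and the next gave 1771 and 2002 (0.18). Both were thus slightly higher on the array whose label implies the loss of RING1B by the design text. The other Rnf2 probe sets lay below the floor on both arrays, at 33.1 and 29.9, at 13.8 and 5.11, and at 2.60 and 7.50, and have no ratio. Ring1 has 1 probe set, which gave 133 and 147 (0.15). Its gene is lost in both genotypes by either text, and its signal was above the floor on both. This signal was dim, below a floor at the 75th percentile on both arrays, and does not show that a Ring1 transcript was present. Cdkn2a, also targeted, gave 679 and 18.5, at least 9.47-fold lower with the TKO label, although the design text makes both genotypes null. The genotype field names Cdkn2a as knocked out for TKO only, which is the direction of this difference, and Ring1B as knocked out for both. These 3 genes therefore do not settle which of the label texts holds. The labels do not say where the deletions lie relative to the probe sets, and a probe set outside a deletion would check nothing. The names DKO-labelled and TKO-labelled are kept for this reason.

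The promoters of the ligases and of the subunits Bmi1 and Cbx8, the members with the highest ratios, are shown because a sequence feature that most subunits had in common is visible in them. Each run holds the 250 bases before the RefSeq start site in GRCm38.p6, 5′ to 3′ in the direction of the gene, and capitals mark every CG dinucleotide. Rnf2 lies at chr1:151500992-151501241 on the minus strand, Ring1 at chr17:34024681-34024930 on the minus strand, Bmi1 at chr2:18676768-18677017 on the plus strand and Cbx8 at chr11:119040914-119041163 on the minus strand.
Rnf2: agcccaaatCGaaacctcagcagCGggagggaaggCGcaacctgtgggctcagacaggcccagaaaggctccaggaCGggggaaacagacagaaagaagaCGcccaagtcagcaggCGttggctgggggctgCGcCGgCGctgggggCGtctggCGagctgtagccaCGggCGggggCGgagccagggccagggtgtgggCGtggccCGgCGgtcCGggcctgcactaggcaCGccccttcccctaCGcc
Ring1: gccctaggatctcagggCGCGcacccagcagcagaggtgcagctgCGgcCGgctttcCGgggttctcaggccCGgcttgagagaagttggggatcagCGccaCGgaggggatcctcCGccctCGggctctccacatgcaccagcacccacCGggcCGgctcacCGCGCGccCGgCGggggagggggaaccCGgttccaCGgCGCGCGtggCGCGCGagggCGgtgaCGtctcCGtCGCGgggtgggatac
Bmi1: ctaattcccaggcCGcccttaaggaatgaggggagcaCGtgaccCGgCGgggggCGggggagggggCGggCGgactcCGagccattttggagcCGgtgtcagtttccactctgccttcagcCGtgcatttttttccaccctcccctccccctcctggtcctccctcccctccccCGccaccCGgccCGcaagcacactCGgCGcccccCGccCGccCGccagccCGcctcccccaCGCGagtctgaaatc
Cbx8: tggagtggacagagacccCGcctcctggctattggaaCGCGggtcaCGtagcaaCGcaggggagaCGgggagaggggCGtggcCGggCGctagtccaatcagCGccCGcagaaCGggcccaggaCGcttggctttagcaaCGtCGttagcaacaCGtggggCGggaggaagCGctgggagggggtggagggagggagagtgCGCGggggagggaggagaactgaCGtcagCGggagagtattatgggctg

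These promoters held 20, 30, 21 and 22 CG dinucleotides for Rnf2, Ring1, Bmi1 and Cbx8. Over the 41 promoter windows listed for 28 of the members the median was 20, and 80.5% of the windows held 10 or more. The median over 10765 windows of genes above the floor on both arrays was 16, with 73.1% holding 10 or more, and over all 32851 windows it was 6, with 37.8%. Subunit promoters were CG-rich as most promoters of measured genes were. Of the 41 windows, 2 held one of the E2F-type octamers TTTCCCGC, TTTGGCGC, TTTCGCGC or TTTGCCGC on either strand, those of Suz12 and Phf19, a share of 4.88% against 3.55% of the windows of measured genes and 1.86% of all windows. These are matches of letters in the window and no record of binding. Cbx2, Pcgf1, Rybp and Yaf2 had no window.

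Canonical PRC1 had the widest range of ratios, -0.35 to 0.98, with Cbx8 at its upper end. The next highest ratio was 0.47, for Bmi1, and variant PRC1 ran from -0.34 to 0.46. The 9 canonical genes above both floors had a median log2 ratio of 0.01, and 6 of the 9 ratios were above 0. Of all genes above both floors, 54.9% had ratios below 0. After quantile normalization the canonical median was -0.02 with 6 of 9 below 0, as were 56.3% of all genes. Cbx8, one of the chromodomain proteins that read the methylated histone, gave 148 and 291, 1.97-fold higher with the TKO label (0.98). This is just short of the 2-fold rule; with the median ratio of all genes set to 0 it was past it, at 1.01. The other Cbx8 probe set was below the floor on both arrays (4.64 and 1.84), so that 1 dim probe set carries this value. It was the member farthest from 0.

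Bmi1 had the next highest ratio, and both of its probe sets gave it. BMI1 is the PCGF protein of canonical PRC1 that stimulates the ligase and is known for its part in the self-renewal of blood progenitors. Its brightest probe set gave 4793 and 6619 (1.38-fold, log2 ratio 0.47), and the second gave 3724 and 4884 (0.39). Its paralogue Pcgf2 (MEL18) lay at the floor: 69.0, just above it, and 60.3, below it, which leaves no ratio, and its second probe set was below both floors. Of this pair of canonical PCGF genes, only Bmi1 was measured on both arrays.

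The other chromodomain paralogues had smaller ratios than Cbx8. Cbx2 gave 559 and 562 (0.01). Cbx7, known as a repressor of the Cdkn2a locus, gave 276 and 234 (-0.24). Its other 2 probe sets were below both floors, at 32.1 and 66.9 and at 5.36 and 27.0. As the mean over its probe sets Cbx7 was at 0.12, so its sign depends on them. Cbx6 gave 2422 and 2774 (0.20), while a second probe set gave 1147 and 1024 (-0.16), so its sign depends on the probe set. The paralogues thus did not shift in one direction.

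The PHC proteins and SCMH1 carry the SAM domains through which canonical PRC1 polymerises. Phc1 gave 924 and 928 (0.01), and Phc2 gave 2020 and 2034 (0.01), with a second Phc2 probe set at 1340 and 1132 (-0.24). Phc3 gave 1175 and 920 (-0.35), the lowest ratio among the subunits; as the mean with a probe set below both floors (28.2 and 43.2) it was 0.13. Scmh1 gave 501 and 472 (-0.09) with its brightest probe set and, with 2 dimmer ones, 166 and 200 (0.27) and 97.0 and 118 (0.28). None of these differences reached 0.5 in log2 ratio.

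Variant PRC1 had a median log2 ratio of -0.11 over 8 genes. Of its ratios 5 were below 0, as were 54.9% of those of all genes above both floors. All 4 PCGF genes were slightly lower on the TKO-labelled array, Pcgf1, Pcgf3 and Pcgf5 by less than the 0.21 SD between probe sets. Of the 4 measured partners 3 were level or higher. As the mean over its probe sets, which includes one below both floors (5.17 and 14.4), Pcgf3 was at 0.46. PCGF proteins define the variant complexes. Pcgf1 gave 201 and 186 (-0.11), Pcgf3 984 and 897 (-0.13), and Pcgf5 2193 and 2001 (-0.13). The other Pcgf5 probe sets were close to it, at -0.16 and -0.15, and a second Pcgf3 probe set was at 0.05.

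Pcgf6 gave the lowest ratio in the class. PCGF6 is the PCGF protein of the complex with L3MBTL2 and E2F6. Its brightest probe set gave 1737 and 1375 (-0.34), the next 303 and 266 (-0.19), and the dimmest 281 and 133 (-1.08, or 2.11-fold lower). That dimmest probe set was the only one past 2-fold of the 66 above both floors; 0.513% of all 20268 probe sets with a ratio were 2-fold lower and 2.99% 2-fold higher. The 3 probe sets of Pcgf6 shared a sign and differed in size, and the mean over them was -0.53.

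Among the partners, Bcor and L3mbtl2 had the highest ratios. BCOR is the corepressor of the complex around PCGF1. Its 3 probe sets gave 941 and 1291 (0.46), 767 and 954 (0.32), and 283 and 358 (0.34), all higher on the TKO-labelled array. L3mbtl2, which encodes the MBT-domain protein of the PCGF6 complex, gave 307 and 392 (0.35) with its single probe set. Kdm2b, whose product carries the PCGF1 complex to unmethylated CG-rich DNA, gave 3764 and 3777, and 1899 and 1899, a log2 ratio of 0.00 with each. Yaf2, the paralogue of Rybp, gave 2294 and 2135 (-0.10) and, with a second probe set, 1357 and 1447 (0.09). Pcgf6 and L3mbtl2, whose products share a complex, had ratios of opposite sign.

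**Figure D2:**
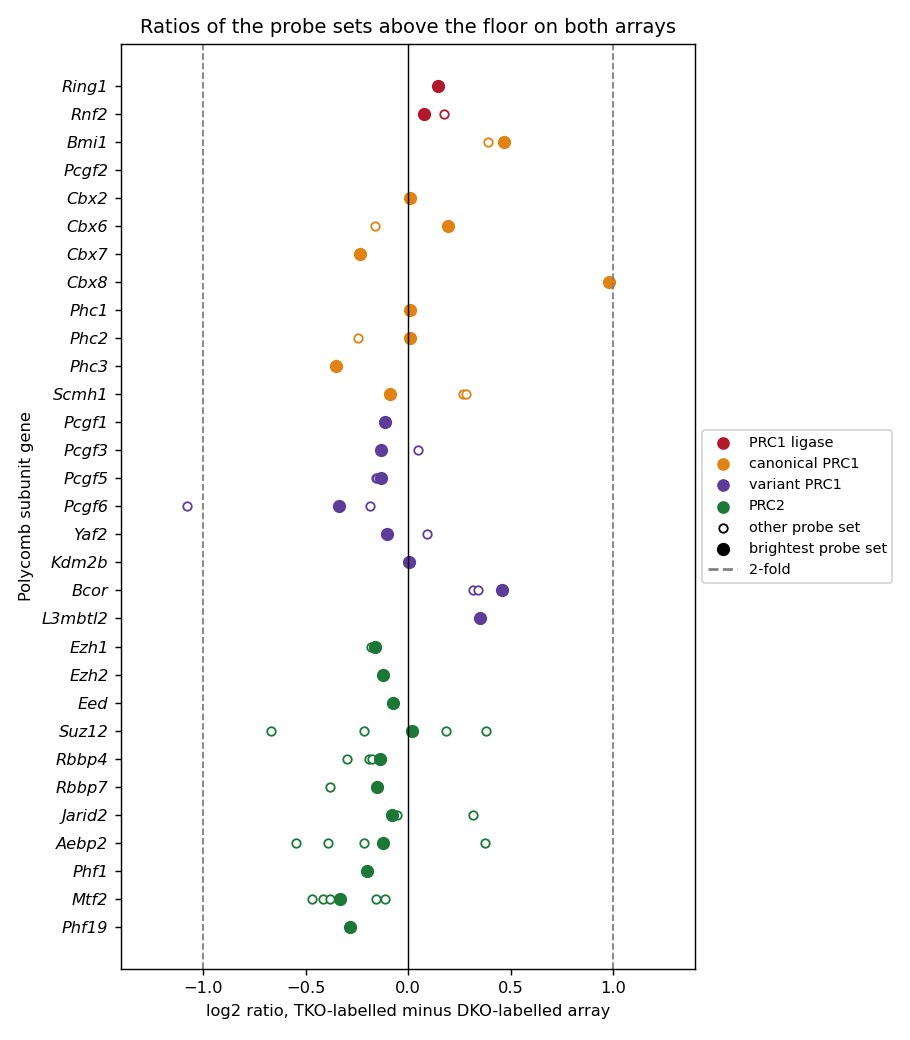
Log2 ratio (TKO-labelled minus DKO-labelled) of each of the 66 member probe sets above the floor on both arrays, 1 row per gene; filled points are the brightest probe set, open points the others, and dashed lines mark 2-fold. Only 1 point, a dim Pcgf6 probe set at -1.08, lies past a line, Cbx8 at 0.98 lies next to the other, and the PRC2 rows gather on the left of 0.

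PRC2 genes had ratios near 0 that were almost all on the negative side. The median log2 ratio of the 11 genes was -0.14, and 10 of 11 ratios were below 0, as were 54.9% of those of all genes above both floors. With a lowess trend of ratio on signal removed the median was -0.04 with 8 of 11 below 0, and with quantile normalization it was -0.09 with 9 of 11. As the mean over probe sets it was -0.20 with 10 of 11, and without the _x_at and _s_at probe sets, which can cross-hybridise, -0.19 with 11 of 11. The median of PRC2 was thus below 0 in each of these settings, and its size depended on them. The largest of the 11 in size was -0.33, for Mtf2.

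In the catalytic core, Ezh2, the methyltransferase of dividing cells, gave 8652 and 7951 (-0.12). Its paralogue Ezh1, known from resting cells, gave 502 and 449 (-0.16), and a second probe set gave 203 and 179 (-0.18). Both paralogues had ratios below 0; with the trend over signal removed Ezh2 was at -0.01 and Ezh1 at -0.14. Eed, which binds the methyl mark and stimulates the enzyme, gave 2238 and 2126 (-0.07). Suz12, the scaffold of the complex, gave 6089 and 6161 (0.02) with the brightest of 6 probe sets. The others ran from -0.67 (420 and 264) to 0.38 (476 and 619), so Suz12 has no settled sign.

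The histone-binding WD40 proteins RBBP4 and RBBP7 also serve in other chromatin complexes. Rbbp4 gave 19215 and 17488 (-0.14), and its 4 probe sets lay between -0.30 and -0.14. Rbbp7 gave 20870 and 18760 (-0.15), and its second probe set 17339 and 13313 (-0.38). The brightest probe set of each is of the _x_at type, which can bind similar transcripts; the second Rbbp7 probe set is not of that type. With the trend over signal removed Rbbp4 and Rbbp7 stood at 0.03 and 0.01, on the other side of 0.

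The accessory subunits of PRC2 split into those of the Polycomb-like proteins, PHF1, MTF2 and PHF19, which bind CG-rich DNA, and JARID2 and AEBP2, which define the alternative form. Mtf2 gave 10065 and 7987 (-0.33), 1.26-fold lower, and its 6 probe sets all lay below 0, between -0.47 and -0.11. Phf1 gave 213 and 185 (-0.20), and Phf19 gave 215 and 177 (-0.28). Phf1 and Phf19 each had only 1 probe set above both floors. Jarid2 gave 1485 and 1406 (-0.08), with other probe sets at 0.32 and -0.05. Aebp2 gave 3366 and 3094 (-0.12), and its 5 probe sets lay between -0.55 and 0.38. By the brightest probe set all 5 accessory genes were below 0, as were 10 of the 11 PRC2 genes. For Jarid2 and Aebp2 the probe sets disagreed in sign.

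Of 18 members with more than 1 probe set above both floors, 10 had ratios of 1 sign and 8 had both signs. Ratios of 1 sign were found for 51.7% of all 4794 genes with several such probe sets, so the members' share is near the background. Those of 1 sign on the higher side were Rnf2, Bmi1, Bcor and Kdm2b, the last at 0.00. On the lower side they were Pcgf5, Pcgf6, Ezh1, Rbbp4, Rbbp7 and Mtf2. Probe sets of one gene share the RNA and the hybridisation, so their agreement says nothing of other animals.

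**Figure D3:**
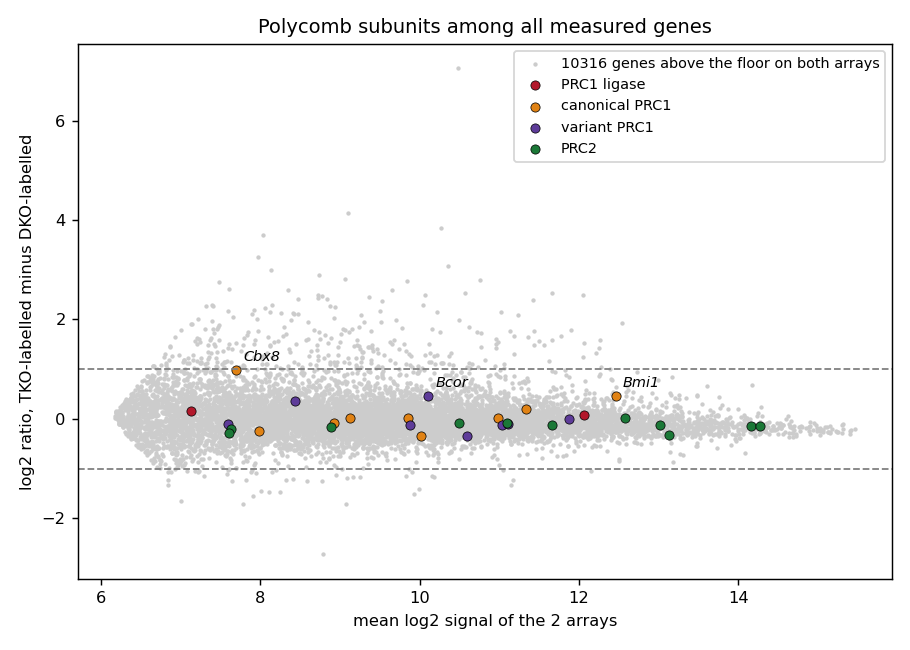
Log2 ratio (TKO-labelled minus DKO-labelled) against mean log2 signal for the 10316 genes above the floor on both arrays (grey) and the 30 Polycomb subunits among them (coloured by complex); dashed lines mark 2-fold and each point is 1 gene on 2 arrays. The subunits follow the grey band at every signal, between -0.35 and 0.98, with Cbx8 just under the upper line.

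Other genes of the pathway also had small ratios, and the widest differences were those of 2 sex-linked genes. A list of 42 further genes held 40 with a probe set; 0 were 2-fold higher and 1 was 2-fold lower, and the median log2 ratio of the 37 above both floors was -0.02. Among 20 other PRC1 partners none passed 2-fold with its brightest probe set; the largest ratios were Scml2 at -0.57 or below (106 and 59.7, the latter below the floor), the casein kinase subunit Csnk2a2 at 0.44, Tfdp1 at -0.31 and Skp1 at -0.30. Csnk2a2 also had a probe set at -0.32. Auts2, a partner in variant PRC1, gave 159 and 130 (-0.30) with its brightest probe set and 169 and 83.7 (-1.01), past 2-fold, with another. Among 6 other PRC2 partners and recruiters none passed, and Epop had the largest ratio, 0.40 (124 and 164), before Lcor at 0.22, Sfmbt2 at -0.14 and Lcorl at 0.08, all by the brightest probe set. The other Lcorl probe sets above both floors were at 0.31, 0.39 and 0.68, the last of these giving 116 and 185.

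Of 14 genes for enzymes and partners that remove the Polycomb marks, the X-linked and Y-linked demethylase homologues differed most. Kdm6a (UTX), an X-linked demethylase of the PRC2 mark, gave 980 and 1889 (1.93-fold, 0.95). Its other probe sets above both floors gave 841 and 1478 (0.81), and 78.2 and 117 (0.58), and the mean over all 4, of which 1 was below both floors, was 0.33. Uty, its Y-linked homologue, gave 345 and 14.7, at least 4.80-fold lower with the TKO label, and as the mean over its probe sets the bound was -0.21. Mysm1, a histone H2A deubiquitinase, was at 0.55 (490 and 719), with a second probe set at -0.07. Hcfc1 was at -0.23. Bap1, the catalytic subunit of the main H2A deubiquitinase, gave 2859 and 3058 (0.10), and is named outside the rule for named genes.

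The sex-linked markers stood apart in the same arrays. Xist gave 124 and 16502, and the Y-linked Eif2s3y gave 1711 and 55.3 and Kdm5d gave 652 and 30.4. Among the subunits, Bcor (0.46) and Rbbp7 (-0.15) are X-linked, and the median of 324 X-linked genes above both floors was -0.02. Sex and label cannot be told apart here.

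Markers of cell types also moved with the labels. All 8 measured T-lineage markers had ratios below 0, from -0.73 to -0.12 (summed signal 85637 and 58791), and 8 of 9 B-lineage markers were 2-fold higher with the TKO label (summed signal 13080 and 33013). In bulk RNA, fewer cells of a type and less RNA per cell cannot be told apart. Of 10 myeloid markers 2 were 2-fold higher and 1 was lower (summed signal 3829 and 4662), of 5 erythroid markers 0 were above both floors (228 and 182), and of 8 stromal and epithelial markers 5 were, with 1 of them 2-fold lower (11107 and 11752). Of 9 proliferation markers 8 had ratios below 0, with a median of -0.16 (summed signal 101347 and 85977), beside the PRC2 median of -0.14; with the trend over signal removed it was -0.05 with 7 of 9 below 0. The T-lineage and B-lineage counts were the same under the 3 other scalings. The part of these markers in the ratios of Bmi1, Cbx8, Bcor, L3mbtl2 and the PRC2 genes was not tested.

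**Figure D4:**
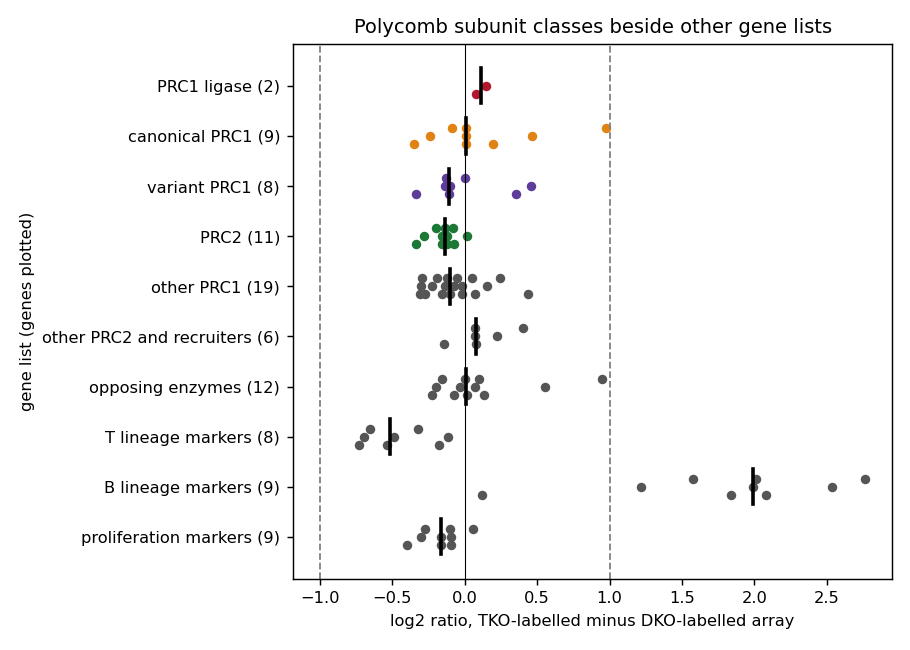
Log2 ratio (TKO-labelled minus DKO-labelled) of the genes above the floor on both arrays in the 4 classes of Polycomb subunits, 3 lists of other pathway genes and 3 marker lists; each point is 1 gene, the number plotted is in brackets, black bars are medians and dashed lines mark 2-fold. All 4 subunit classes have medians between -0.14 and 0.11, while the B-lineage median is 1.99 and the T-lineage median -0.51.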

How the data were processed

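The data are 1 Affymetrix array per label, grouped by title (DKO and TKO). The deposited values are intensity values per probe set on a linear scale; the submitters' processing notes name MAS5, without version or settings. The mean after trimming 2% at each end was 497 on both arrays, and signals reached 48752 and 42296. The number of arrays limits the precision.

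Of 45037 probe sets, 34945 had 1 gene in the platform annotation, 932 had several and 9160 were not listed; 99.4% of the single genes matched RefSeq (GRCm38.p6) by Entrez ID for current symbols. Each gene was represented by its brightest probe set (highest mean log2 signal). Signals below the array median (the floor) were raised to it; a gene above the floor on 1 array has a bound ("at least"), and none where the bound would point the wrong way. A fold is the antilog of the log2 ratio. Promoter sequences are RefSeq's. The procedure was tested on simulated data. Changes larger than 2-fold were planted there in genes bright on the DKO-labelled array, so smaller changes and dim genes were not covered. Python 3.11.15, numpy 2.4.6, pandas 2.3.3, scipy 1.17.1, statsmodels 0.14.6 and matplotlib 3.10.9 were used.

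Members, lists and rules were chosen with earlier results of these data known. Named were all members, all probe sets of Ring1 and Rnf2, other probe sets that departed from the brightest by over 0.5 log2 or in side of the 2-fold rule, and of the other pathway lists the genes past 2-fold and the 4 with the largest ratios; Bap1, Auts2 and other probe sets were added after their values were seen. Alternatives were median centring, quantile normalization, a lowess trend (span 0.3), the mean over probe sets, floors at the 25th or 75th percentile, and no _x_at or _s_at probe sets. Detection calls and scan dates were not used here.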

Additional observations from a re-analysis of the deposited data

How the results depend on the processing

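Of 202 member ratios recomputed under the 7 alternatives, 201 stayed under 2-fold, and 1, Cbx8 after median centring (1.01), did not. The value of Cbx7 as the mean over probe sets, counted among the 201, is a bound of at least 0.12, so its size is not known. Cbx8 ran from 0.92 to 1.01 where it had a ratio. The sign changed in 17 of the 202, in none of them with a size of 0.5 or more. Median centring made 1 member and 1 member probe set 2-fold higher, against 0 and 0. The floor at the 25th percentile made 1 member probe set 2-fold higher, that of Cbx7 with 32.1 and 66.9. With the floor at the 75th percentile 0 member probe sets were 2-fold lower, against 1, and 8 of the members (Ring1, Pcgf2, Cbx7, Cbx8, Pcgf1, L3mbtl2, Phf1 and Phf19) were below it on both arrays, so their ratios rest on dim signals. The class medians moved by less than the 0.21 SD between probe sets in each alternative. That SD is of single probe sets and larger than the medians themselves, so this does not show that they are stable. The PRC2 median ran from -0.20 to -0.04, that of variant PRC1 from -0.12 to -0.0016 and that of canonical PRC1 from -0.09 to 0.04. The counts over all genes, 404 higher and 60 lower, were 962 and 434 with the floor at the 25th percentile and 147 and 14 at the 75th. Of other pathway genes, 0 were 2-fold lower with the floor at the 75th percentile or the mean over probe sets, against 1 (Uty). Cdkn2a was under 2-fold at the 75th-percentile floor, with a bound of -0.66. No paired analysis was possible because each label has 1 array, and for the same reason no replicate could be left out.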
